A study of Homo sapiens with 6 samples.

Results

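Before a cell copies its DNA it licenses its replication origins. The origin recognition complex (ORC), CDC6 and CDT1 load the ring of MCM2, MCM3, MCM4, MCM5, MCM6 and MCM7 onto DNA, and this ring is the motor of the replicative helicase. Geminin, encoded by GMNN, binds CDT1 and blocks a further round of loading until the next cycle, and MCM10 takes part when the loaded helicase is activated. The transcripts of many of these genes are known targets of the E2F transcription factors and are most abundant around the start of DNA synthesis in cycling cells.

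The 10 genes described here are the 6 subunits of the MCM ring (MCM2 to MCM7), MCM10 and the loading genes CDC6, CDT1 and GMNN, taken by symbol from 60708 gene identifiers. All 10 were found, and all 10 passed the filter on low counts that left 20409 genes for testing. The genes were chosen by function, but the group was selected on the fold changes of the PARGi to DMSO comparison in the sense that these were already known when it was proposed. The changes of its members are therefore given as descriptions, with the standard error (SE) and 95% interval of the fit and with no p-value.

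RNA sequencing was done on wild-type U2OS, a human bone tumour (osteosarcoma) line in long use, with 2 groups of 3 libraries that the series describes as biological triplicates. Control cells were kept in DMSO. Treated cells, called PARGi, were kept in 25 µM PDD00017273, an inhibitor of poly(ADP-ribose) glycohydrolase, the enzyme that takes apart poly(ADP-ribose) chains. Both groups were harvested after 4 days, and a single line and a single dose were studied. A stranded kit was used on total RNA, so reads from transcripts that are still being made are present beside mature messenger RNA.

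Levels are given as CPM, the counts of a gene scaled to a library of 1000000 counts after correction for library composition (TMM scaling). Depth ran from 60286931 to 80605145 counts per library, and the 10 genes together took 0.191% to 0.196% of the counts of a library. Mitochondrial transcripts took 3.48% to 3.88% and did not separate the groups. Of the mesenchymal and osteoblast markers, COL1A1, VIM, FN1 and RUNX2 were well above background, with mean levels from 83.3 CPM for RUNX2 to 4373.5 CPM for COL1A1 in DMSO, whereas the osteoblast genes BGLAP and SP7 were at or below 0.070 CPM in both groups and IBSP had no count in any library. Of 7 blood and endothelial markers, PTPRC was the most abundant at 1.20 CPM in DMSO. Of 6 epithelial markers 5 could be tested. KRT14, the most abundant, fell from 22.4 to 14.3 CPM (edgeR adjusted p = 1.33e-08) and CDH1 rose from 0.718 to 1.144 CPM (edgeR adjusted p = 0.0104), while EPCAM went from 3.53 to 3.02 CPM with no call and KRT20 had no count in DMSO. Of the 10 mesenchymal and osteoblast markers 7 could be tested, and 3 fell and 1 rose. COL1A2 fell from 13.0 to 7.41 CPM (edgeR adjusted p = 1.6e-08), RUNX2 from 83.3 to 69.0 CPM (edgeR adjusted p = 4.96e-08) and SPP1 from 1.99 to 1.53 CPM (edgeR adjusted p = 0.0379), and ALPL rose from 4.68 to 5.52 CPM (edgeR adjusted p = 0.0364). The part of these genes in the results below was not tested.

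The licensing genes moved in opposite directions, each by a small amount. CDC6, MCM10, CDT1 and GMNN were higher in PARGi by 7.52% to 15.7%, MCM2, MCM5 and MCM6 were lower by 7.10% to 12.7%, and MCM3, MCM4 and MCM7 did not pass the threshold. In the test across all genes (edgeR's quasi-likelihood test, Benjamini-Hochberg adjusted p under 0.05), 7 of the 10 were called, 4 higher and 3 lower, where 24.3% of all tested genes were called (13.2% higher and 11% lower). Among the 5748 tested genes at least as abundant as GMNN, the least abundant of the 10, the share called was 37.9%. The log2 fold change is the fitted PARGi level over the DMSO level on the log2 scale, so 0 is no change. Its median over the 10 was 0.032, with a range from -0.20 to 0.21, against -0.0070 for all tested genes. Since the group was proposed from this same comparison, nothing is read from its share of calls. The groups did not overlap in 9 of the 10 genes, 5 above and 4 below DMSO, where 38% of all tested genes had groups that did not overlap (19.8% above and 18.2% below).

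**Figure D1:**
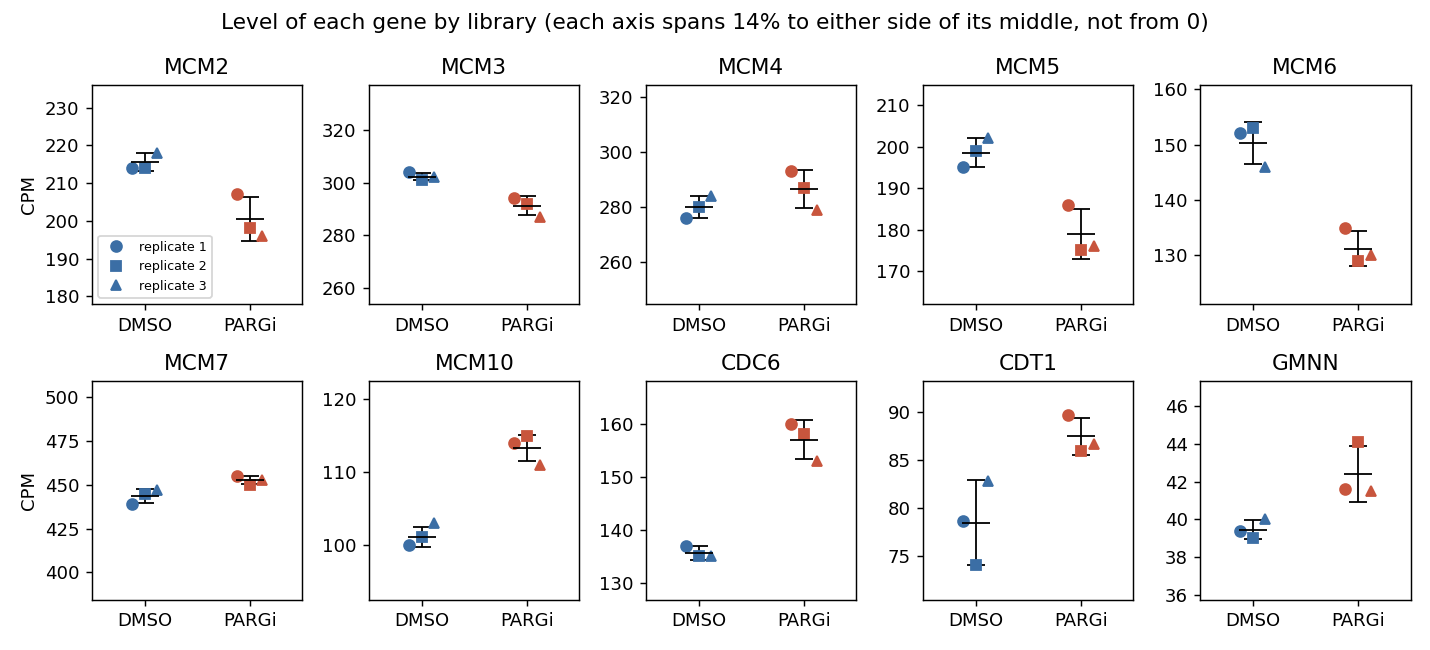
Level of each of the 10 genes in scaled counts (CPM, vertical axes, not starting at 0) in the 3 DMSO (blue) and 3 PARGi (red) libraries; symbols mark the replicate number and black bars the mean and SD. CDC6 lies at 135 to 137 CPM under DMSO and 153 to 160 in PARGi, MCM6 at 146 to 153 and 129 to 135, and MCM4 is the one gene whose groups overlap.

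The promoters are shown because genes of a single pathway moved in opposite directions. RefSeq (GRCh38.p14) windows of 8 of the 10 genes were searched. No window of MCM4 or MCM5 was searched, so the counts of genes with a word leave both out. The 250 bases before the RefSeq start site were searched on both strands for the E2F words TTTCCCGC, TTTGGCGC, TTTCGCGC and TTTGCCGC, for the same words with a last G (TTTCCCGG, TTTGGCGG, TTTCGCGG and TTTGCCGG, added after the windows of the 10 genes were seen) and for CCAAT, the word bound by NF-Y. The windows of 3 genes that rose and of 2 that fell follow, 5′ to 3′ on the strand of the gene, with the E2F and CCAAT words in capitals. They are chr17:40287629-40287878 (plus strand) for CDC6, chr16:88803539-88803788 (plus) for CDT1, chr10:13161308-13161557 (plus) for MCM10, chr2:135876444-135876693 (minus) for MCM6 and chr3:127598161-127598410 (plus) for MCM2.
CDC6: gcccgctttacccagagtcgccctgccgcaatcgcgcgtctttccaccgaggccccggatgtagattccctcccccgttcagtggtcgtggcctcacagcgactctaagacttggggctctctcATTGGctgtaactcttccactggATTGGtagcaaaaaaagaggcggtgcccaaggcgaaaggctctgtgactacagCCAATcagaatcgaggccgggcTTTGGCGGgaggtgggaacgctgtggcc
CDT1: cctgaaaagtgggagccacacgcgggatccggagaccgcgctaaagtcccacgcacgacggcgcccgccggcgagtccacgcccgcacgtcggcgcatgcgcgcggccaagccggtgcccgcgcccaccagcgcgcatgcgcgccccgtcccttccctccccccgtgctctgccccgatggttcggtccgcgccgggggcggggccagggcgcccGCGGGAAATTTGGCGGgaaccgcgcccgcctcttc
MCM10: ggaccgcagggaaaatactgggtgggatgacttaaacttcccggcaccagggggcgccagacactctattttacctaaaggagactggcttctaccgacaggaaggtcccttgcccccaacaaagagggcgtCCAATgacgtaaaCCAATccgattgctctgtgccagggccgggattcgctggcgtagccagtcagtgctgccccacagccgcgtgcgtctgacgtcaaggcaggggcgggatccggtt
MCM6: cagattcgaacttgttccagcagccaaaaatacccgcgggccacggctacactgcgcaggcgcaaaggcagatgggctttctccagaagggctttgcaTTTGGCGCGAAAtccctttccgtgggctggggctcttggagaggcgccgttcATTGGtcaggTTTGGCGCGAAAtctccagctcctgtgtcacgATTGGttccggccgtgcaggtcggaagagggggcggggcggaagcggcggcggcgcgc
MCM2: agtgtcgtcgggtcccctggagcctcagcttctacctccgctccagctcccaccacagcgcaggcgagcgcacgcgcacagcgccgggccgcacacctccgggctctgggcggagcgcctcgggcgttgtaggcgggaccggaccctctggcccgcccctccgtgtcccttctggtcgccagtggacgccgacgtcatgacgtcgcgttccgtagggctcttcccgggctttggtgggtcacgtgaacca

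E2F words were found in some genes of each direction and not in others. Of the genes that fell, MCM6 and MCM2 were searched and MCM5 was not. Whether these words bear on the direction of change was not tested. Of the genes that rose, CDC6 held TTTGGCGG from 28 to 21 bases before the start site, CDT1 held a TTTCCCGC on the minus strand followed by TTTGGCGG between 35 and 20 bases before it, and MCM10 held none. GMNN held TTTGGCGC in the second of its 2 windows. Of the genes that fell, MCM6 held the 12-base stretch TTTGGCGCGAAA at 2 places, 152 and 90 bases before the start site, where TTTGGCGC and, on the other strand, TTTCGCGC overlap, and MCM2 held none. MCM3 and MCM7, which were not called, held E2F words too. In all, 5 of the 8 genes searched held a word of the first set, against 3.8% of the 18740 windows of tested genes. A word of either set was held by 6 of 8, against 7.24%. The second set was added after these windows were seen, and CDC6 is counted only through it, so nothing is read from that comparison. CCAAT was held by 6 of 8, against 32.4%. The CHR words TTTGAA and TTCGAA were in the windows of 1 of 8 genes, against 10.8%, and the E-box CACGTG in those of 2 of 8, against 7.85%. Genes with several windows had more than one chance of a match. A match is a word in the sequence and was not tested for binding.

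CDC6 (chr17:40287633-40304657, plus strand; gene positions are those of GENCODE 29 on GRCh38) is the ATPase that, with ORC, recruits the MCM ring to an origin. Its level was 137, 135 and 135 CPM in DMSO replicates 1, 2 and 3 and 160, 158 and 153 CPM in PARGi replicates 1, 2 and 3. Every PARGi library lay above every DMSO library, by a margin larger than the spread within either group. The log2 fold change was 0.21 (SE 0.026, 95% interval 0.16 to 0.26), or 15.7% with an interval from 11.5% to 20.1%. This was the largest change among the 10, yet 28.1% of all tested genes changed by more in either direction.

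CDT1 (chr16:88803213-88809258, plus strand) is the other loading factor, which brings the MCM ring to ORC and CDC6 and is destroyed once DNA synthesis starts. Its level was 78.6, 74 and 82.8 CPM in the DMSO libraries and 89.7, 86 and 86.7 CPM in the PARGi libraries. The groups were separated, but CDT1 had the widest spread of the 10 in DMSO, a coefficient of variation of 5.65%, where its counting error was at most 1.46%. The log2 fold change was 0.16 (SE 0.033, interval 0.086 to 0.22). It was 0.12 without DMSO replicate 2, the lowest library, and 0.20 without DMSO replicate 3, the highest.

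GMNN (chr6:24774931-24786099, plus strand) encodes geminin, the inhibitor of CDT1. Its level was 39.4, 39 and 40 CPM under DMSO and 41.6, 44.1 and 41.5 CPM in PARGi. All PARGi libraries were above all DMSO libraries, with 2 of them close to the DMSO range and PARGi replicate 2 higher. The log2 fold change was 0.10 (SE 0.034, interval 0.034 to 0.17), and the call was lost without PARGi replicate 2 (0.075), without DMSO replicate 1 (0.10), without DMSO replicate 2 (0.096), with upper-quartile scaling (0.080) and among protein-coding genes alone (0.089). As the least abundant of the group, with 2483 to 3338 counts per library, GMNN also had the largest counting error, up to 2.01%.

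MCM10 (chr10:13161554-13211104, plus strand) is a replication factor that binds the loaded helicase and the DNA it unwinds and is needed for the helicase to start moving. Its level was 100, 101 and 103 CPM under DMSO and 114, 115 and 111 CPM in PARGi. The groups were far apart for their spread, with a log2 fold change of 0.16 (SE 0.026, interval 0.11 to 0.22). It ran from 0.14 to 0.18 over all 17 alternative settings, including each library left out in turn, and its call held in all of them. MCM10 is not a subunit of the MCM ring, and it went the opposite way from MCM2, MCM5 and MCM6.

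In the MCM ring, MCM6 (chr2:135839626-135876426, minus strand) changed most. MCM6 was at 152, 153 and 146 CPM under DMSO and 135, 129 and 130 CPM in PARGi. Every PARGi library was lower than every DMSO library, and the log2 fold change was -0.20 (SE 0.027, interval -0.25 to -0.14), or -12.7% with an interval from -16.0% to -9.18%. MCM6 joins MCM4 and MCM7 in the part of the ring that was first shown to unwind DNA on its own.

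MCM5 (chr22:35400063-35425430, plus strand) and MCM2 (chr3:127598223-127622436, plus strand) flank the gate of the ring through which DNA enters. MCM5 was at 195, 199 and 202 CPM under DMSO and 186, 175 and 176 CPM in PARGi, with a log2 fold change of -0.15 (SE 0.027, interval -0.21 to -0.095). MCM2 was at 214, 214 and 218 CPM under DMSO and 207, 198 and 196 CPM in PARGi, a log2 fold change of -0.11 (SE 0.026, interval -0.16 to -0.052). For both genes the groups were separated and PARGi replicate 1 was the treated library closest to DMSO. An antisense gene, AC023593.1, shares 1113 exonic bases with MCM2 on the opposite strand. It had 4 to 13 counts per library against 12416 to 16245 for MCM2. The strand setting of the counting is not given in the sources used here.

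MCM3 (chr6:52264009-52284881, minus strand), MCM4 on chromosome 8 and MCM7 (chr7:100092728-100101940, minus strand) had no call. MCM3, a neighbour of MCM5 in the ring, was at 304, 301 and 302 CPM under DMSO and 294, 292 and 287 CPM in PARGi. Its PARGi libraries were all lower, but the log2 fold change was small, -0.054 (SE 0.024, interval -0.10 to -0.0050). It passed the threshold in 2 of the 17 alternatives, upper-quartile scaling (-0.079) and protein-coding genes alone (-0.069), and was smaller, -0.028, with the offset for GC content and length.

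MCM4 was at 276, 280 and 284 CPM under DMSO and 293, 287 and 279 CPM in PARGi. The groups overlapped, and the log2 fold change was 0.034 (interval -0.018 to 0.086). MCM7, the most abundant of the 10, was at 439, 445 and 447 CPM under DMSO and 455, 450 and 453 CPM in PARGi, a log2 fold change of 0.030 (interval -0.018 to 0.077). With upper-quartile scaling the values were 0.0094 for MCM4 and 0.0050 for MCM7. For MCM4 and MCM7 the intervals allow changes from -1.26% to 6.16% and from -1.24% to 5.50%, so changes as large as those of MCM5 and MCM6 lie outside them. The microRNA genes MIR25, MIR93 and MIR106B lie in introns of MCM7 and overlap none of its exons, and AP4M1 shares 392 exonic bases with it on the opposite strand.

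**Figure D2:**
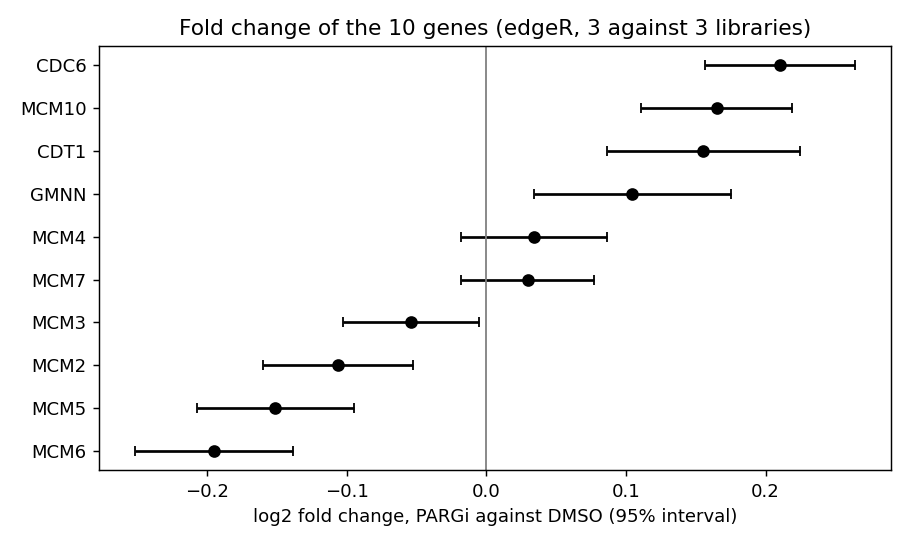
Log2 fold change of PARGi against DMSO for the 10 genes (points) with the 95% interval of the fit (bars), ordered by size. CDC6, MCM10, CDT1 and GMNN lie to the right of 0, MCM3, MCM2, MCM5 and MCM6 to the left, and the intervals of MCM4 and MCM7 include 0.

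The summed level of MCM2 to MCM7 was 1579.9, 1592.4 and 1598.2 CPM under DMSO and 1570.2, 1531.1 and 1522.1 CPM in PARGi. All 3 treated libraries were lower, although PARGi replicate 1 was below the lowest DMSO library by less than the range of the DMSO libraries, and the log2 difference of -0.045 was small. Of the per-length sum, MCM3 kept nearly the same part, 25.0% ± 0.202 and 24.8% ± 0.177, whereas the parts of MCM6 and MCM7 moved further apart. MCM6 went from 11% ± 0.311 to 9.92% ± 0.109 and MCM7 from 30.5% ± 0.153 to 32.1% ± 0.386 (SD, n = 3 each). MCM2 went from 13.3% ± 0.112 to 12.7% ± 0.177 and MCM5 from 8.16% ± 0.115 to 7.59% ± 0.147. MCM4 went from 12.1% ± 0.126 to 12.8% ± 0.155. These are parts of a whole, so a fall in some raises the others, and the level of MCM7 itself had no call. Per kilobase of merged exon, the ratio of the most to the least abundant subunit, MCM7 to MCM5, rose from 3.74 ± 0.0373 to 4.24 ± 0.121. With the transcript that has the longest coding sequence, MCM6 was the least abundant. In bulk RNA, a lower level in every cell and fewer cells in the phase that holds the transcript cannot be told apart.

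Ratios between genes of the same library do not depend on how libraries are scaled. CDC6 counts were 0.901, 0.885 and 0.924 times those of MCM6 in DMSO and 1.19, 1.23 and 1.177 times in PARGi. This is a ratio of counts, not corrected for length. Per kilobase of merged exon CDC6 was below MCM6 in both groups, at 24.4 against 36.5 CPM per kilobase under DMSO and 28.3 against 31.9 under PARGi. MCM7 was 2.88, 2.92 and 3.06 times MCM6 in DMSO and 3.37, 3.49 and 3.49 times in PARGi. MCM10 was 0.0634, 0.0631 and 0.0642 of the MCM2 to MCM7 sum in DMSO and 0.0724, 0.0751 and 0.0732 in PARGi. Each of these 3 ratios was higher in all treated libraries. The ratio of CDT1 to its inhibitor GMNN, by contrast, was 1.99, 1.897 and 2.07 in DMSO and 2.15, 1.95 and 2.09 in PARGi, and the groups overlapped. These ratios were chosen after the values were seen and are descriptions.

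**Figure D3:**
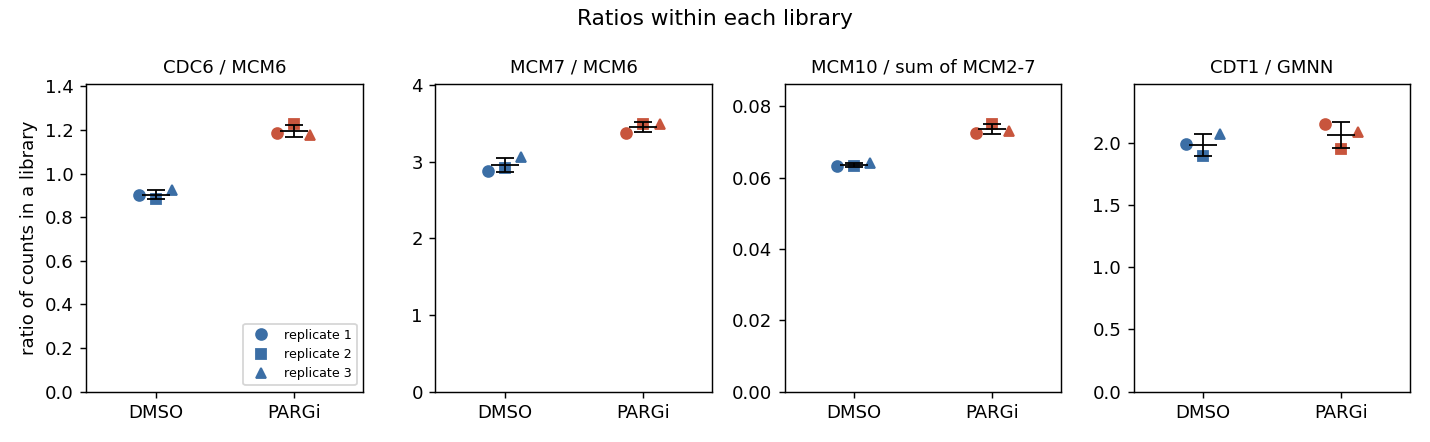
Ratio of the counts of CDC6 to MCM6, MCM7 to MCM6, MCM10 to the sum of MCM2 to MCM7, and CDT1 to GMNN (vertical axes, from 0) in each DMSO and PARGi library, with the mean and SD. The PARGi libraries lie above the DMSO libraries in the first 3 panels, and the groups overlap for CDT1 to GMNN.

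Spread between libraries of a group was small and partly shared. Coefficients of variation in DMSO ran from 0.408% for MCM3 to 2.56% for MCM6, with CDT1 at 5.65%, and in PARGi from 0.50% for MCM7 to 3.50% for GMNN. Within PARGi, replicate 1 was above the group mean for 9 of the 10 genes, GMNN being the exception, and replicate 3 was above it for 1 of 10, MCM7. The shift was on average 0.024 in replicate 1 and -0.023 in replicate 3 on the log2 scale. That is below the change of each of the 7 called genes. Across the 6 libraries the genes outside the group most like the mean profile of MCM2 to MCM7 were CST3, ZNG1A, SEMA4B, ZNF687 and KRT14, with Pearson's r from 0.991 to 0.993, a description in which the 2 groups and the libraries are shared by every gene. MCM2 and MCM5 themselves had r of 0.993 and 0.988 with that mean, to which they contribute, MCM4 had -0.24, MCM7 -0.67 and MCM10 -0.86. Pearson's r takes no account of the size of a change. Log2 fold changes of the genes outside the group most like that mean ran from -0.66 in KRT14 to -0.098 in ZNG1A. The MCM2 to MCM7 sum, a measure other than that mean profile, changed by -0.045.

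The 10 genes also differed in how abundant they were. Per kilobase of merged exon in DMSO, MCM7 was highest at 101 ± 0.923 CPM per kilobase, followed by MCM3 at 82.8 ± 0.338, MCM2 at 44.0 ± 0.471, MCM4 at 40.1 ± 0.573, MCM6 at 36.5 ± 0.936 and MCM5 at 27.1 ± 0.486. The loading genes and MCM10 came below all 6 ring subunits: CDC6 at 24.4 ± 0.235, CDT1 at 23.5 ± 1.33, MCM10 at 18.5 ± 0.243 and GMNN at 15.9 ± 0.194 (SD, n = 3). The ranges of CDC6 and CDT1 overlapped, and those of all other neighbours in this order did not. The order depends on the length used. With the transcript that has the longest coding sequence in place of merged exons, MCM4 was at 88.6 and MCM5 at 56.2, and MCM4 stood above MCM2 at 59.5, MCM5 above MCM6 at 40.2, and MCM10 (32.0) and GMNN (31.3) above CDC6 (28.2) and CDT1 (24.2). MCM7 at 150.0 and MCM3 at 94.2 kept the top places.

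**Figure D4:**
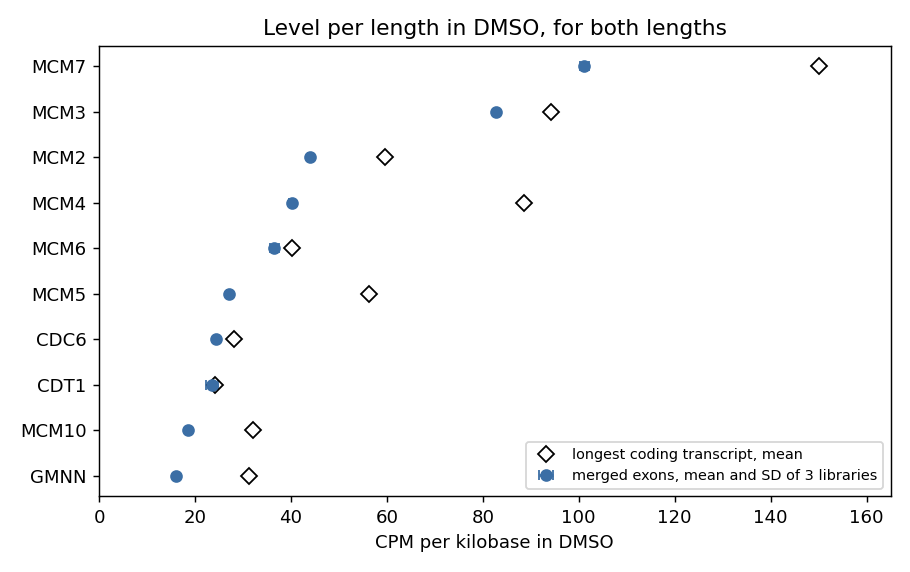
Level in DMSO per kilobase (horizontal axis, CPM per kilobase) of the 10 genes, over the length of merged exons (filled, mean and SD of 3 libraries) or of the transcript with the longest coding sequence (open, mean). MCM7 and MCM3 are highest with either length, and MCM4 moves from 40.1 to 88.6.

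The other genes of the licensing pathway were taken from lists by function, which were also drawn up with earlier results known, and tested in the same fit over all 20409 genes. For that reason nothing is read from the shares called in these lists, and their adjusted p-values are descriptions. Of the 6 ORC genes, which mark the origins, 3 rose and none fell, that is 50% called. Of all tested genes 24.3% were called, and of those at least as abundant as GMNN 37.9%. ORC1, ORC2, ORC3 and ORC5 had a lower mean level than GMNN over the 6 libraries, so the second share is for a partly unlike set. The largest change was that of ORC6, at 61.1, 58.3 and 59.4 CPM under DMSO and 68.6, 66.5 and 67.6 CPM in PARGi, with separated groups (log2 fold change 0.18 with an SE of 0.029, by edgeR adjusted p = 5.43e-05). ORC3 (0.14, edgeR adjusted p = 0.0114) and ORC4 (0.095, adjusted p = 0.0303) rose less. ORC3 lost its call without PARGi replicate 1 (0.13) or 2 (0.11), and ORC4 without DMSO replicate 1 (0.10) or 3 (0.084) or PARGi replicate 1 (0.10) or 2 (0.074). ORC4 also lost it with DESeq2 (0.095), upper-quartile scaling (0.070) and protein-coding genes alone (0.080). The list's count then was as low as 1, without PARGi replicate 1 or without PARGi replicate 2. ORC1, the subunit whose level varies through the cell cycle, was at 33.7 ± 1.00 CPM under DMSO and 35.5 ± 1.06 CPM in PARGi, with overlapping groups.

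Among 14 genes that turn the loaded ring into an active helicase, 7 rose and none fell, at a median log2 fold change of 0.082. That is 50% called, against the same 24.3% and 37.9%. GINS3, MTBP and DONSON were less abundant than GMNN, so the 37.9% is for a partly unlike set. GINS4, a subunit of the GINS complex that joins CDC45 and the MCM ring at the fork, was at 62.6, 66.2 and 63.3 CPM under DMSO and 74.2, 75.9 and 72.5 CPM in PARGi (log2 fold change 0.21 with an SE of 0.030, by edgeR adjusted p = 9.06e-06). The fork factor WDHD1 (0.15, edgeR adjusted p = 0.000142), the helicase gene RECQL4 (0.17, adjusted p = 0.000684) and DONSON (0.16, adjusted p = 0.00203) followed, all with separated groups. DONSON shares exonic bases with the gene AP000311.1 on its strand, so its count is less certain. Genes on the opposite strand overlap others too, such as GINS4, by 1159 exonic bases with AC009630.2, and RECQL4, by 198 with AC084125.4. DONSON itself shares 307 with SON. Since the strand setting of the counting is not given, how reads over these shared bases were counted is not known. The other 3 called genes, named after their values were seen, were GINS1 (0.12), GINS3 (0.10) and TOPBP1 (0.085). With single libraries left out, GINS3 kept its call only without DMSO replicate 2 (lowest value 0.078 over the libraries left out), and TOPBP1 lost it without DMSO replicate 1, PARGi replicate 2 or PARGi replicate 3 (lowest value 0.072). Both lost it with upper-quartile scaling (0.078 and 0.060), and GINS3 also with DESeq2 (0.10), without the filter on low counts (0.11) and among protein-coding genes alone (0.087). The partner subunits of the helicase did not all move: GINS2 was at 98.6 ± 0.262 and 97.4 ± 2.07 CPM, and CDC45 at 81.5 ± 0.655 and 83.6 ± 1.00 CPM, and neither passed the threshold. The genes of the kinase CDC7, which phosphorylates the MCM ring, and of its activator DBF4 did not pass it either.

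Of 13 genes that control licensing through degradation and kinases, 5 rose and 1 fell (46.2% called, against 24.3% of all tested genes and 37.9% of the abundant ones). CDK2, the kinase that drives entry into DNA synthesis, was at 127, 124 and 122 CPM under DMSO and 142, 142 and 144 CPM in PARGi (log2 fold change 0.20 with an SE of 0.026, by edgeR adjusted p = 2.09e-06). It shares 565 exonic bases with AC025162.1 on the opposite strand, and the strand setting of the counting is not given. CKS1B, a cofactor of the ubiquitin ligase subunit SKP2, rose by 0.13 (edgeR adjusted p = 0.00162). The remaining calls were smaller, and single libraries ended them. With each library left out in turn, DTL, the receptor through which CDT1 is degraded at forks (0.084), kept its call only without DMSO replicate 1, and PCNA, the sliding clamp that this degradation needs (0.074), and SKP2 (0.080, named after its value was seen) kept theirs only without DMSO replicate 2. Over the libraries left out, the values of these 3 genes ran from 0.063 to 0.10. All 3 also lost their calls with upper-quartile scaling (0.060 for DTL, 0.050 for PCNA and 0.055 for SKP2) and with protein-coding genes alone (0.069, 0.059 and 0.065), while PCNA was higher, 0.14, with the offset for GC content and length. DDB1, the adaptor of the same ligase as DTL, fell by 0.086 (edgeR adjusted p = 0.0106) and lost its call without PARGi replicate 2 (-0.080) and with the offset for GC content and length (-0.056). The number that rose was 2 to 4 with any library left out.

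The paralogues MCM8 and MCM9 form a helicase of their own that works in recombination. MCM8 rose from 30.8, 30.2 and 31.1 CPM to 35.8, 34.9 and 35.2 CPM (log2 fold change 0.20 with an SE of 0.034, by edgeR adjusted p = 0.000115), and HROB, which recruits that helicase, rose by 0.27 (SE 0.047, edgeR adjusted p = 0.000175). MCM9, at 17.2 ± 0.354 and 17.2 ± 0.315 CPM, did not pass the threshold. Nor did MCMBP, a binding protein of the MCM ring, at 112 ± 2.10 and 112 ± 1.67 CPM. Of the 6 genes in this list, 2 rose and none fell. The 33.3% called lies between the 24.3% of all tested genes and the 37.9% of those at least as abundant as GMNN. MCM8, HROB and MCM9 were less abundant than GMNN, so the 37.9% is not for genes of their level.

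Of 18 E2F, RB and MuvB genes, which set the transcription of the licensing genes, 5 rose and 1 fell, and the median log2 fold change was 0.0023. The 33.3% called again lies between 24.3% for all tested genes and 37.9% for those at least as abundant as GMNN. Several genes of the list, among them E2F2, LIN54 and LIN9, were less abundant than GMNN, so the 37.9% is for a partly unlike set. TFDP1, the dimer partner of E2F proteins, was at 186, 185 and 188 CPM under DMSO and 211, 215 and 212 CPM in PARGi (log2 fold change 0.19 with an SE of 0.024, by edgeR adjusted p = 2.07e-06). MYBL2, the MYB protein that joins the MuvB complex, rose by 0.14 (edgeR adjusted p = 0.000251). E2F2, an activating E2F, was at 28.5, 29.7 and 29.5 CPM under DMSO and 25.2, 25.4 and 25.1 CPM in PARGi (log2 fold change -0.21 with an SE of 0.037, by edgeR adjusted p = 0.000151), and E2F1 was at 72.4 ± 1.88 and 73.0 ± 1.33 CPM, with no call. The smaller rises of E2F3 (0.092) and LIN54 (0.11) were lost without DMSO replicate 1, PARGi replicate 1 or PARGi replicate 2, and that of E2F3 also without PARGi replicate 3. The lowest value with a library left out was 0.074 for E2F3 and 0.088 for LIN54. The fifth riser was LIN9 (0.12, named after its value was seen), which lost its call without DMSO replicate 1, DMSO replicate 3, PARGi replicate 2 or PARGi replicate 3 (lowest value 0.094). E2F3, LIN54 and LIN9 also lost their calls with upper-quartile scaling (0.068, 0.082 and 0.099), and E2F3 and LIN9 with DESeq2 (0.092 and 0.12) and with protein-coding genes alone (0.077 and 0.11). The number that rose was 2 to 6 with any library left out.

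**Figure D5:**
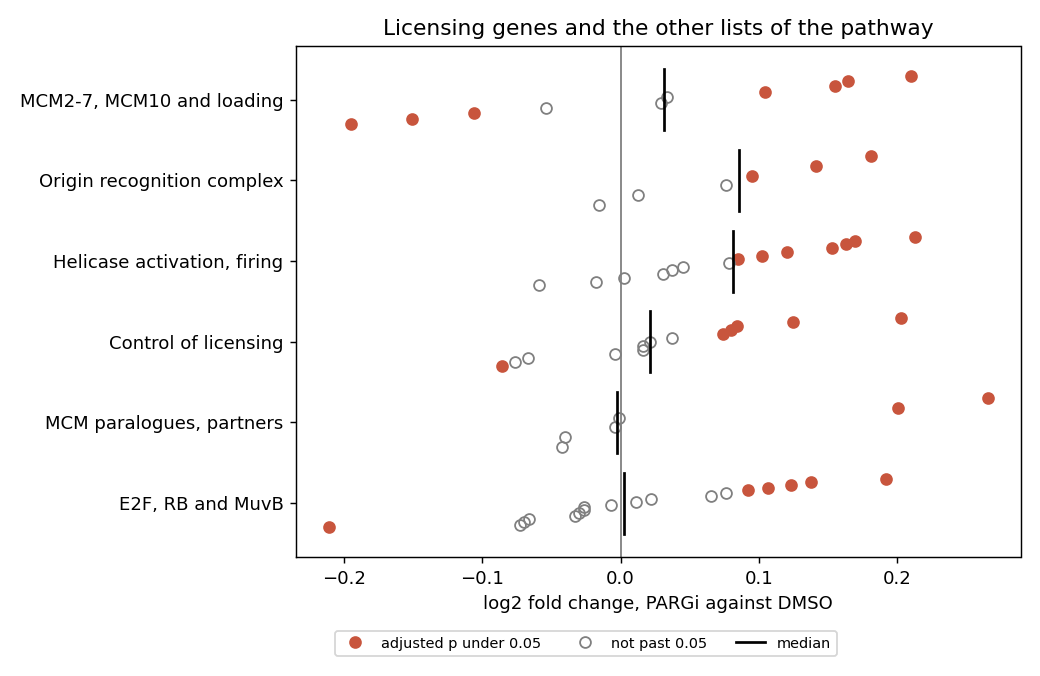
Log2 fold change of PARGi against DMSO (horizontal axis) for each tested gene of the 10 licensing genes and of the 5 other lists; filled points passed an edgeR adjusted p of 0.05, open points did not, and black bars are medians. The licensing genes have calls on both sides of 0, while the ORC, activation and paralogue lists have calls above 0 only.

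The counts of higher and lower genes depend on the scaling. Over all genes 54.5% of the calls were higher, against 40.5% with upper-quartile scaling and 64.8% with an offset for GC content and length. The directions of the 10 licensing genes were the same under all 3.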

How the data were processed

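The authors deposited 1 file of raw counts per gene and library, not normalised. Per the submitters' processing notes the reads were handled with cutadapt 1.18, STAR 2.7.3a and SAMtools 1.9 on hg38, and DESeq2 and deepTools are listed too. The strand setting, annotation release and filters are not given in the sources used here. No row lacked a gene (0 of 60708). Symbols were found for 60463 identifiers, and positions and lengths came from GENCODE 29 on GRCh38. Groups came from the sample titles.

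Counts were filtered with filterByExpr, scaled by TMM and tested for treatment with the quasi-likelihood F-test of edgeR 4.0.16 (R 4.3.3). All 6 libraries entered the fit, p-values of 20409 genes were adjusted together by Benjamini-Hochberg, and the threshold was 0.05. CPM values are counts scaled to 1000000 after TMM, and errors are SDs over 3 libraries. The test was tried on simulated counts first. Counting error is a lower limit, since no molecular identifiers are recorded.

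The members and lists were chosen with earlier results of these data known. Named genes are the 10 members, up to 4 called genes in each direction from each other list (those with the smallest p) and partners of members without a call. The 17 alternatives were DESeq2 1.42.0, limma-voom (limma 3.58.1), other scalings and filters, protein-coding genes alone, robust dispersions, a replicate block, a loess offset for GC content and length, and each library left out. A threshold of 0.01 was tried as well. All pairs of libraries differed by more than sampling noise. Figures were drawn with matplotlib 3.10.9.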

Additional observations from a re-analysis of the deposited data

How the results depend on the processing

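Over 17 alternatives the directions of all 10 licensing genes held, and CDC6, MCM10, CDT1, MCM2, MCM5 and MCM6 kept their calls. That of MCM2 was close to the threshold without PARGi replicate 3 (-0.090). GMNN lost its call in 5 and MCM3 gained one in 2. The number of licensing genes called was 3 to 4 higher and 3 lower with any library left out. At a threshold of 0.01, 3117 genes were called, 1774 higher and 1343 lower. With a library left out the count of all calls ran from 3607 to 4848. For the ORC list the number called higher was 1 at 0.01 and 1 to 3 with a library left out. For the list on control of licensing it was 2 with upper-quartile scaling, 2 with protein-coding genes alone and 2 at 0.01, and 2 to 4 with a library left out, while the number called lower was 3, 3 and 0, and 1 to 2. For the E2F, RB and MuvB list the number called higher was 3 with DESeq2, 2 with upper-quartile scaling, 3 with protein-coding genes alone and 2 at 0.01, and 2 to 6 with a library left out. The number called lower there was 2 with upper-quartile scaling, with at least 10 counts in every library and with protein-coding genes alone, and 1 to 2 with a library left out. The cause was not tested.

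Both groups use replicate numbers 1 to 3, but same-numbered libraries did not deviate together (r of -0.00585, 0.0157 and -0.00784 across genes), so the numbers were not taken to pair the libraries. With the replicate block, 4553 genes were called, and 4 licensing genes were higher and 3 lower, as without it.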
